A study of Mus musculus with 36 samples.

Results

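Bone marrow monocytes of wild-type (WT) mice treated with OMV-SIRP-G were compared with those treated with OMV-SIRP, across all genes, by RNA sequencing. OMV stands for outer membrane vesicle, a particle that Gram-negative bacteria shed from their surface, and the series describes engineered nanohybrids built on such vesicles. The labels do not spell out what SIRP or the added G stands for, so the treatments are called here by their labels. The comparison took the 3 monocyte libraries labelled OMV-SIRP-G and the 3 labelled OMV-SIRP, 6 of the 36 samples of the series. The whole series has 12 groups of 3: tumour-associated macrophages from B16_F10 and MC38 tumours, granulocyte-macrophage progenitors (GMP) and monocytes, each after PBS (phosphate-buffered saline), OMV-SIRP or OMV-SIRP-G. Bone marrow is given as the tissue of GMP and monocytes, with "bone marrow cells" as cell type, and the sample titles alone name them GMPs and Monos. The labels give no strain, age, dose, time after treatment or sorting gate. According to the design text samples were pooled by group. Whether replicate libraries stem from different mice is not stated, so each p-value reflects the spread among these libraries only, which may be technical.

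Monocytes are made in the bone marrow from GMP, enter the blood and turn into macrophages or related cells in tissues. They sense bacterial surface molecules such as lipopolysaccharide through CD14 and Toll-like receptor 4, which switch on genes of inflammation through NF-kB. In such cells the transcription factor HIF-1 also drives glycolysis and genes of low oxygen, NRF2 drives genes of haem, iron and thiol chemistry, ATF4 answers amino acid shortage, and SREBP2 drives cholesterol synthesis.

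Gene-assigned reads, recovered from the deposited FPKM values, numbered 15448731 to 17811332 in each of the 6 libraries. FPKM is a fragment count divided by gene length and library total. Correlations of log2(FPKM + 1) ran from 0.991 to 0.993 within the groups and from 0.988 to 0.99 between them. Monocyte genes were abundant in all 6: the summed FPKM of 16 monocyte markers was 15615 to 17590 in the OMV-SIRP libraries and 12935 to 15297 in the OMV-SIRP-G libraries. The mean level of Ly6c2, the surface antigen of classical monocytes, was 512 FPKM after OMV-SIRP and 317 after OMV-SIRP-G. No T or NK cell marker passed the filter on low values, and their summed FPKM did not exceed 3.79. Of the 3 PBS monocyte libraries, which serve here as a reference outside the test, replicate 2 stood apart: its correlations with the other two were 0.971 and 0.970, and theirs with each other was 0.993.

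OMV-SIRP-G monocytes carried more transcript of the inflammatory mediators Ccl5, Nos2, Il1b and Ptgs2 than OMV-SIRP monocytes, but less of Tnf. They also carried more of many hypoxia-response, glycolytic, iron and NRF2, amino acid stress and cholesterol-synthesis genes. They carried less of the C-type lectins Mgl2 and Clec10a, the complement chain C1qb, and many MHC class II and myeloid progenitor genes. Genes of alternative activation, among them these lectins, split, with 5 higher and 4 lower of 12 tested. Among 11544 genes with at least 1 FPKM in at least 3 libraries, limma called 1317 higher (11.4%) and 801 lower (6.94%) in OMV-SIRP-G at a Benjamini-Hochberg adjusted p under 0.05, 18.3% in either direction. Most called changes were small: 74 genes rose and 43 fell by at least 2-fold, and the median log2 change over all genes tested was 0.01. The shares of 11.4% higher and 6.94% lower are the background for the list counts below. All changes below are log2 differences of FPKM + 1, OMV-SIRP-G minus OMV-SIRP, with the standard error, and "adjusted p" is that of this fit. Called genes were 62.2% higher on the deposited scale but 38.3% higher (844 higher, 1357 lower) when each library was scaled to its total of recovered reads, which lowered the median of all genes by 0.08. The FPKM denominator was 0.978 to 1.01 times the recovered reads in the OMV-SIRP libraries and 0.928 to 0.944 times in the OMV-SIRP-G libraries. The part of this difference in the split was not tested beyond that rescaling.

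**Figure D1:**
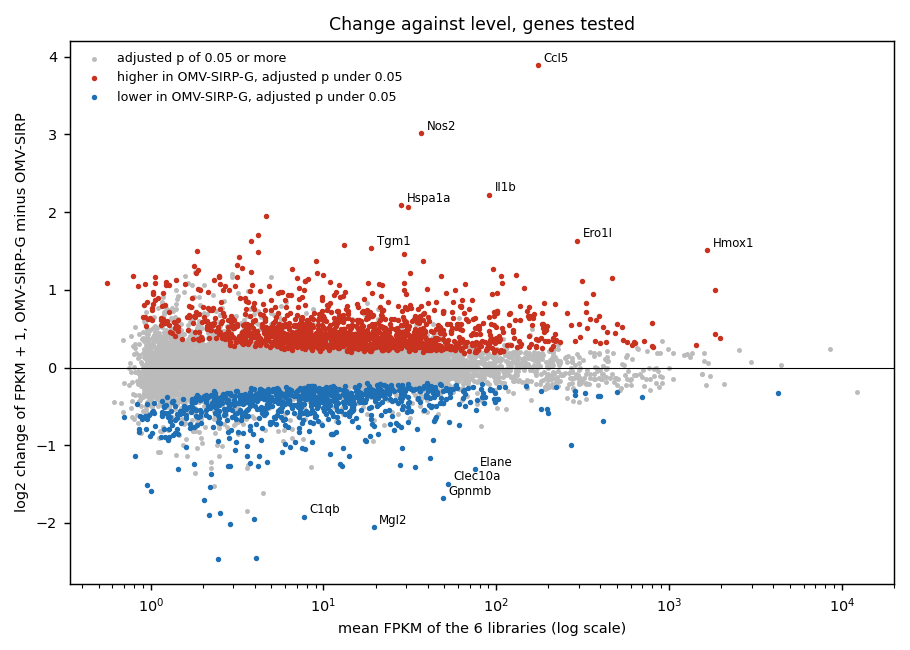
Each point is a gene tested, by its mean FPKM over the 6 libraries (horizontal, log scale) and its log2 change of FPKM + 1 (vertical); red genes were higher and blue genes lower in OMV-SIRP-G at an adjusted p under 0.05. Ccl5 lies farthest up at 3.89, Mgl2 and C1qb are labelled near -2, and the bulk of called genes lies within 1 log2 unit of 0.

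Ccl5, Nos2 and Il1b had the 3 largest rises among the named genes. Ccl5, a chemokine that draws T cells and monocytes (chr11:83525778-83530518, GRCm38), was at 17.8, 21.9 and 24 FPKM in OMV-SIRP replicates 1, 2 and 3 and at 341, 323 and 313 FPKM in the OMV-SIRP-G replicates. All OMV-SIRP-G values lay far above all OMV-SIRP values, and the PBS libraries, at 8.62, 18.6 and 8.04 FPKM, were within or below the OMV-SIRP range. The change was 3.89 ± 0.11 (adjusted p = 4.5e-06). Nos2, the inducible nitric oxide synthase (chr11:78920787-78960254), stood at 7.84, 6.10 and 7.98 FPKM after OMV-SIRP and at 64.7, 75.4 and 58 FPKM after OMV-SIRP-G, a change of 3.01 ± 0.12 (adjusted p = 3.9e-05). Here the PBS libraries, at 37.6, 21.8 and 37.9 FPKM, lay between the groups. Il1b, which codes for the fever-inducing cytokine interleukin-1 beta (chr2:129364570-129371139), rose from 27.2, 37.1 and 30.5 to 152, 142 and 157 FPKM, by 2.22 ± 0.11 (adjusted p = 7.4e-05). Its PBS libraries, at 36, 60.5 and 39.6 FPKM, ranged from within the OMV-SIRP values to above them, and stayed below OMV-SIRP-G.

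Enzymes of the first and the last step from arachidonic acid to prostaglandin E2 rose. Ptgs2, cyclooxygenase-2, was at 15.7, 14.9 and 14.7 FPKM in OMV-SIRP and 44, 45.5 and 40.7 FPKM in OMV-SIRP-G, a change of 1.46 ± 0.07. Ptges, the terminal prostaglandin E synthase, was at 5.53, 6.57 and 6.32 and 19.8, 22 and 19 FPKM, a change of 1.57 ± 0.09. Neither gene's groups overlapped, by the rule that chose the named genes. Arginine is used by the product of Nos2 and by Arg1, arginase 1, and both transcripts rose in the same libraries: Arg1 went from 19.7, 21.4 and 20.7 to 58.3, 49.5 and 56.8 FPKM, by 1.37 ± 0.08 (adjusted p = 1.2e-04). Cd38, an enzyme that consumes NAD, rose by 1.27 ± 0.07 from 3.71, 3.44 and 3.13 to 9.58, 9.68 and 9.80 FPKM, with PBS lowest at 1.84, 1.63 and 2.25 FPKM.

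The other named rises were of the inducible Hsp70 chaperones Hspa1a (2.09 ± 0.07) and Hspa1b (2.07 ± 0.07), near-identical copies whose reads may be split either way, Ero1l (1.63 ± 0.06), Tgm1 (1.53 ± 0.06), Hmox1 (1.51 ± 0.07), Basp1 (1.27 ± 0.11), Olfml2b (1.22 ± 0.07) and Hilpda (1.22 ± 0.12). Tgm1, a transglutaminase, was tight within groups, at 9.16, 9.38 and 9.18 FPKM in OMV-SIRP and 29.8, 27.6 and 28.5 FPKM in OMV-SIRP-G, with PBS above both at 45.1, 56 and 46.1 FPKM. These 15 genes, and the 15 with the largest falls, kept an adjusted p under 0.05 with each of the 6 libraries left out in turn and under every other scaling, filter and model fitted to the 6 libraries. When the 3 PBS libraries shared the spread in 1 fit of 9 libraries, 293 genes were called in all, and Elane, Trem2, H2-Eb1 and Hist1h2bg did not pass among the 30. With PBS replicate 2 left out of that fit, 2516 genes were called, 2085 of them among the 2118, and all 30 passed.

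**Figure D2:**
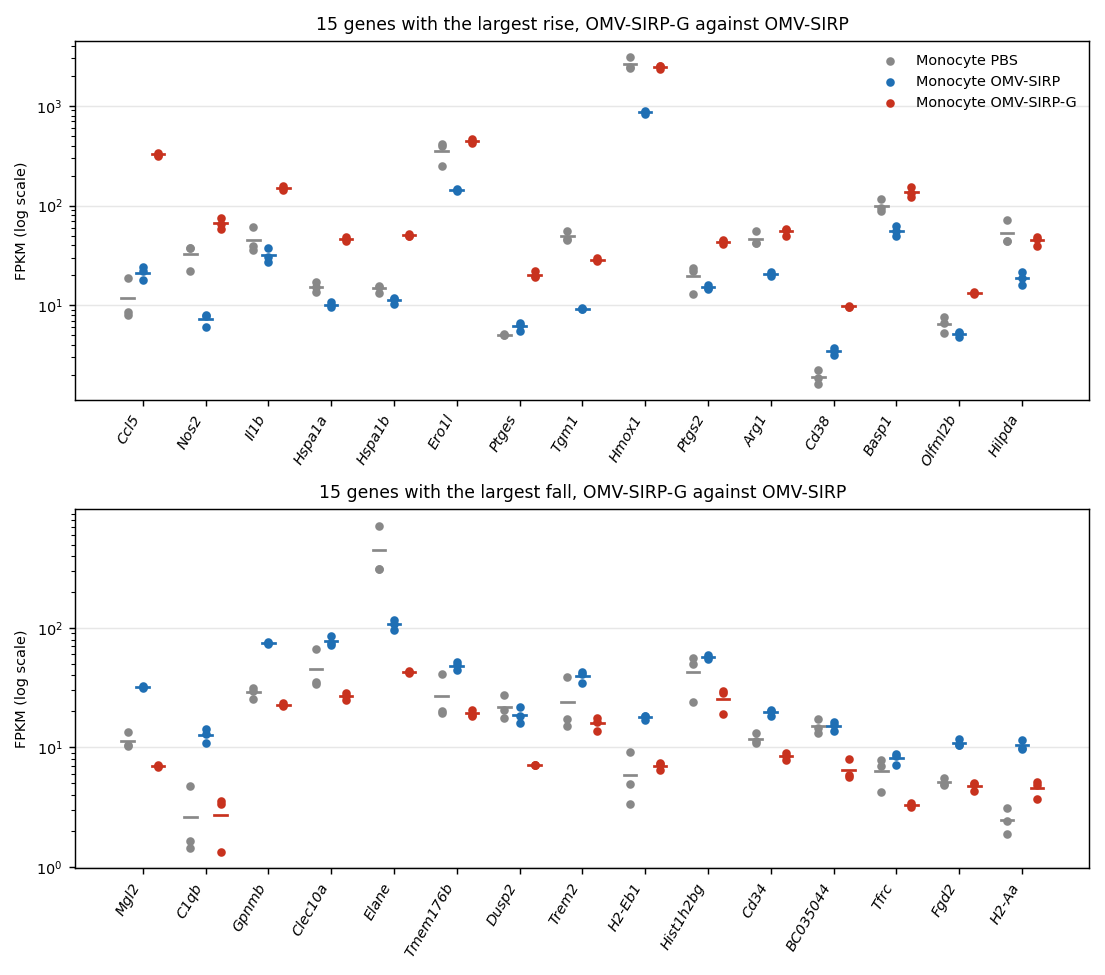
FPKM (vertical, log scale) of the 15 genes with the largest rises and the 15 with the largest falls between OMV-SIRP (blue) and OMV-SIRP-G (red), 1 point per library, bars at the mean, PBS in grey. The blue and red points do not overlap for any gene, by the rule that chose them, while PBS lies between the groups for 9 genes, below both for 3, above both for 2 and overlaps a group for 16.

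Among the pathway lists, the hypoxia response had the highest share of called members. Of 15 tested, 12 were higher and 1 was lower, with a median change of 0.71 against 0.01 over all genes. Ero1l, an oxidase that forms disulphide bonds in the endoplasmic reticulum, was at 146, 139 and 143 FPKM in OMV-SIRP and 448, 463 and 420.2 FPKM in OMV-SIRP-G (adjusted p = 2.1e-05). Its PBS libraries, at 401, 248 and 418 FPKM, were all above OMV-SIRP. Adm, the vasodilator peptide adrenomedullin, was low and rose from 1.74, 1.35 and 1.56 to 5.57, 4.68 and 5.34 FPKM, by 1.28 ± 0.10. Hilpda, a lipid droplet protein that inhibits fat breakdown, rose from 18.7, 21.3 and 16 to 45.7, 39.4 and 48.5 FPKM. Bnip3, which marks mitochondria for removal, rose from 146, 171 and 159.5 to 277, 282 and 281 FPKM, by 0.82 ± 0.07. Smaller rises were those of Fam162a (0.77 ± 0.12), Ndrg1 (0.73 ± 0.06), Mxi1 (0.73 ± 0.06), Egln3, a hydroxylase that tags HIF for degradation (0.71 ± 0.06), and Vegfa, the vessel growth factor (0.51 ± 0.06). Plin2, another lipid droplet protein, was called lower at -0.28, a call lost without OMV-SIRP replicate 2 or 3 or OMV-SIRP-G replicate 1 or 2 (highest adjusted p = 0.082). Between 11 and 12 members were called higher with any 1 library left out, 7 in the fit of 9 libraries and 12 in that of 8.

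The 250 bases before the transcription start of the 4 members with the largest rises are shown because this list moved together. They come from RefSeq (GRCm38.p6), read 5′ to 3′ on the gene's strand, and capitals mark the core of the hypoxia response element, ACGTG or GCGTG on either strand, a motif chosen after the values were seen. Ero1l, named Ero1a in RefSeq, lies on the minus strand of chr14:45318573-45318822, Adm on the plus strand of chr7:110627407-110627656, Hilpda on the plus strand of chr6:29272238-29272487 and Bnip3 on the minus strand of chr7:138909507-138909756.
Ero1l: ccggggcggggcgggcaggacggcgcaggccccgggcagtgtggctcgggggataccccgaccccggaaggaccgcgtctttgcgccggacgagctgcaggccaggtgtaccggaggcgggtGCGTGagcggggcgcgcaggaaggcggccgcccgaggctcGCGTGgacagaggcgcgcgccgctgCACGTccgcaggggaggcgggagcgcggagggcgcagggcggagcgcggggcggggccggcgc
Adm: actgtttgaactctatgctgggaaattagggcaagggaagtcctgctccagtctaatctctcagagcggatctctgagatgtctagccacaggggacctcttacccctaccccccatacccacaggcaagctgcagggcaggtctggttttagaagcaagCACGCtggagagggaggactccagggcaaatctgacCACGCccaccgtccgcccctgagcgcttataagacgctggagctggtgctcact
Hilpda: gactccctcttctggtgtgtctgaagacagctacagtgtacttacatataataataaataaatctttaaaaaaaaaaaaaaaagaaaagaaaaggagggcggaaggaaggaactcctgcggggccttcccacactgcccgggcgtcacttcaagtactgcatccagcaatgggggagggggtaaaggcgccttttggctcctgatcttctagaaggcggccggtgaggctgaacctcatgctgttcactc
Bnip3: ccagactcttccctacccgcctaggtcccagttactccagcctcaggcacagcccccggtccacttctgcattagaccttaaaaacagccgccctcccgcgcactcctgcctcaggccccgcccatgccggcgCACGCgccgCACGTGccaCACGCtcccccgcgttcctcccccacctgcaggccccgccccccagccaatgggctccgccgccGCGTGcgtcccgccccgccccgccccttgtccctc
There were 3 matches for Ero1l, 2 for Adm, 0 for Hilpda and 5 for Bnip3, in which an ACGTG match on each strand overlaps in one palindrome. One form or the other was found in 38.6% of 32851 RefSeq promoter windows of this length, ACGTG in 16.6% and GCGTG in 28.2%. Of the 12 list members called higher, 11 had a RefSeq promoter and 8 of these (72.7%) held a match. The list was put together from hypoxia-response genes, so this share is no test of the contrast. None of the 4 windows held the interferon-stimulated response element core GAAANNGAA (7.13% of all windows), the gamma-activated site TTCNNNGAA (7.02%), the AP-1 site TGANTCA (6.75%) or the CRE TGACGTCA (1.55%), all searched on both strands, and 1, that of Ero1l, held a kappa-B site (3.9%). A match is a run of letters and was not tested as a binding site.

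Glycolysis moved with the hypoxia list. Of 17 tested members 11 were higher and none lower (median 0.36). Slc2a1, the glucose transporter GLUT1, was at 142, 138 and 141 FPKM in OMV-SIRP and 234, 230.2 and 222 FPKM in OMV-SIRP-G, a change of 0.70 ± 0.06 (adjusted p = 4.6e-04). Pfkfb3, whose product makes the activator of phosphofructokinase, rose from 48.5, 44.8 and 44.2 to 79.1, 81.5 and 78.5 FPKM, by 0.79 ± 0.06, and Pfkp, a phosphofructokinase, by 0.60 ± 0.06. The hexokinases Hk1 (0.47 ± 0.08) and Hk2 (0.45 ± 0.07), Gpi1 (0.44 ± 0.07) and Pgk1 (0.44 ± 0.07) rose less, whereas Hk3 (-0.01), Pfkl (0.02) and Ldha (0.18) did not pass the test. Gapdh was erratic, at 116, 12.8 and 8.10 FPKM in OMV-SIRP and 55.7, 9.37 and 9.92 FPKM in OMV-SIRP-G, so no direction could be given (adjusted p = 0.85). Without OMV-SIRP-G replicate 1 the count of higher members fell from 11 to 7, and the fit of 9 libraries called 2. Hif1a, which codes for the regulated subunit of HIF-1, itself rose by 0.79 ± 0.09, from 26.6 ± 1.43 to 46.9 ± 5.44 FPKM (SD, n = 3).

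Iron handling and NRF2 genes also rose: 13 of 17 tested were higher and 1 was lower (median 0.47). Hmox1, haem oxygenase 1, which splits haem and frees its iron, was at 872, 895 and 833 FPKM in OMV-SIRP and at 2513, 2352 and 2525 FPKM in OMV-SIRP-G (change 1.51 ± 0.07, adjusted p = 5.5e-05). Its PBS libraries, at 2438, 3096 and 2414 FPKM, were within or above the OMV-SIRP-G range. Fth1, the heavy chain of the iron store ferritin, rose by 1.003 ± 0.09, from 1109.9, 1331 and 1267 to 2451, 2598 and 2369 FPKM. The member that fell was Tfrc, the transferrin receptor that takes up iron, at 8.85, 8.42 and 7.17 FPKM in OMV-SIRP and 3.27, 3.17 and 3.44 FPKM in OMV-SIRP-G (-1.09 ± 0.09, adjusted p = 5.0e-04). Rises on the same list included those of Slc48a1, which moves haem out of the lysosome (0.80 ± 0.06), Blvrb, a biliverdin reductase (0.69 ± 0.11), and Slc11a1, a phagosomal metal exporter (0.45 ± 0.05). Of the NRF2 targets for thiol chemistry, Gclm, a subunit of the glutathione-making ligase, rose by 0.84 ± 0.06 from 38.7, 42.7 and 39 to 74.2, 74 and 69.8 FPKM, Txnrd1 by 0.54 ± 0.06 and Gsr by 0.51 ± 0.07. Between 10 and 13 members were called higher with 1 library left out, and 4 in the fit of 9 libraries.

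**Figure D3:**
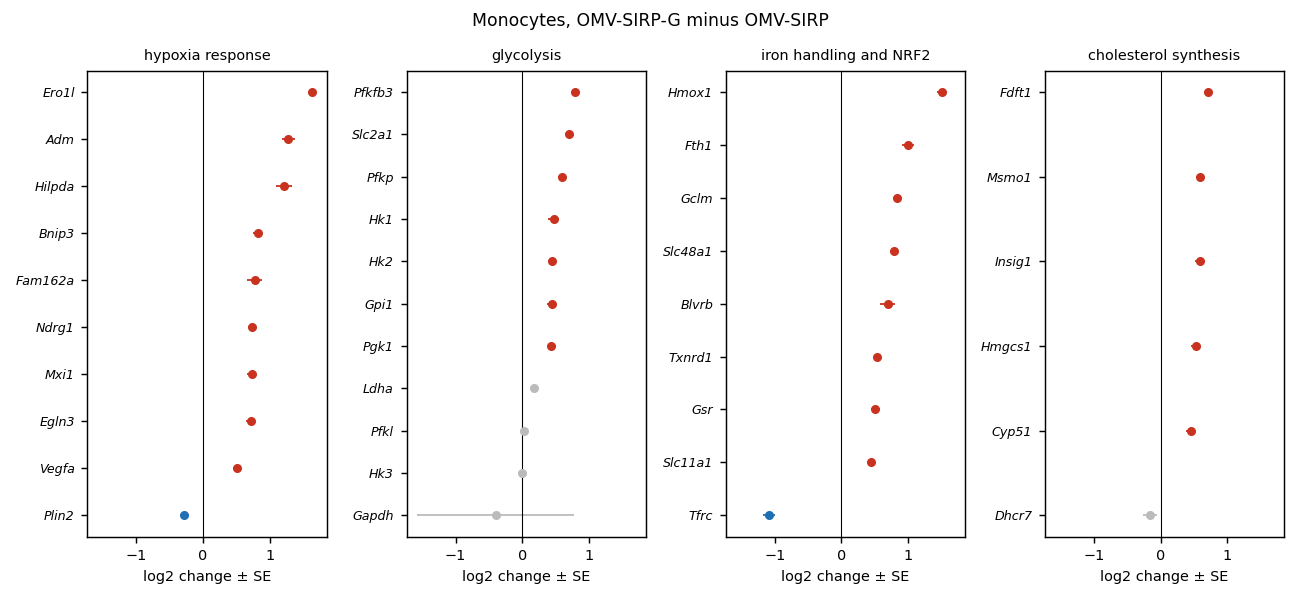
Log2 change of FPKM + 1 with its standard error for the members of 4 lists whose values are given in the text; red members were higher, blue lower and grey did not pass an adjusted p of 0.05. Most members shown are red, the lone blue points are Plin2 and Tfrc, and the wide bar belongs to Gapdh.

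Changes of cholesterol synthesis genes were modest. Of 18 tested members 12 were higher and none lower (median 0.46), 11 to 12 with any 1 library left out and 5 in the fit of 9 libraries. Fdft1, squalene synthase, was at 14.1, 13.1 and 14.5 FPKM in OMV-SIRP and 22.3, 23.4 and 24.2 FPKM in OMV-SIRP-G (0.71 ± 0.07). Fdft1, with a mean of 18.6 FPKM over the 6 libraries, overlaps Ctsb, at 297 FPKM, on the other strand. Without a stated strand setting, reads of the shared stretch cannot be told apart. Hmgcs1 (0.53 ± 0.07), Msmo1 (0.59 ± 0.06), Cyp51 (0.45 ± 0.07) and Insig1, the sterol-dependent brake on the pathway (0.59 ± 0.07), also rose. Dhcr7, an enzyme of the last steps, did not pass (-0.15). Abca1, a pump that exports cholesterol, was low and rose by 0.78 ± 0.11, from 0.872, 0.916 and 1.22 to 2.28, 2.69 and 2.32 FPKM.

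Amino acid stress genes under ATF4 included 8 of 16 tested that were higher and none lower (median 0.33). Slc7a11, the cystine transporter, rose from 4.21, 3.92 and 3.70 to 9.82, 10.6 and 9.65 FPKM, by 1.16 ± 0.07 (adjusted p = 1.8e-04). Ddit4, an inhibitor of mTORC1, rose by 1.08 ± 0.09, Trib3, a pseudokinase induced by ATF4, by 1.08 ± 0.07, Sesn2 by 0.75 ± 0.08 and Asns, asparagine synthetase, by 0.61 ± 0.08. Atf4 itself changed by 0.28, a call lost without OMV-SIRP replicate 2 or 3 or OMV-SIRP-G replicate 1 (highest adjusted p = 0.077), and without the last of these the list count fell from 8 to 5. Of 14 endoplasmic reticulum stress genes tested 0 were higher and 4 lower (median -0.12), the largest fall being that of Sdf2l1 (-0.77 ± 0.13). That count was 1 without OMV-SIRP replicate 2, OMV-SIRP replicate 3 or OMV-SIRP-G replicate 1. In the heat-shock list of 13, 4 were higher (30.8%) and 0 lower (median 0.02), and only the pair Hspa1a and Hspa1b rose by over 0.3. The higher count was 2 without OMV-SIRP replicate 2 or 3 or OMV-SIRP-G replicate 1 or 3. Hspa1b was at 10.3, 11.5 and 11.8 FPKM in OMV-SIRP and 49, 52 and 49.5 FPKM in OMV-SIRP-G, with PBS at 15.7, 13.4 and 15 FPKM. Dnajb1, a co-chaperone induced by the same factor, was at 0.02 (adjusted p = 0.89). Immediate-early genes, which can rise during cell handling, numbered 6 higher and 2 lower of 21 (median 0.16), with Fos (0.16), Jun (0.19) and Egr1 (0.27) not passing, and their part in the results was not tested.

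Apoptosis and p53 target genes counted 8 higher and 1 lower of 14 (median 0.30). Cdkn1a, the cell cycle inhibitor p21, rose from 99.6, 89.7 and 96.4 to 203, 192 and 191 FPKM, by 1.03 ± 0.06 (adjusted p = 1.7e-04). The death receptor Fas (0.61 ± 0.06) rose too, whereas Bax (0.06) and Bbc3 (0.10) did not pass. The count of higher members was 4 without OMV-SIRP-G replicate 1, and the lower call, Phlda3 (-0.39), was lost without replicates 1 or 2 of either group (highest adjusted p = 0.08).

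Within inflammatory cytokines and NF-kB feedback genes, 12 of 25 tested were higher and 3 lower (median 0.27). Il1a and Il12a passed the filter only through the OMV-SIRP-G libraries, and 1 of them was among the 12. Of the other 23 tested, 11 were higher and 3 lower (median 0.184). Besides Nos2, Il1b and Ptgs2, the cytokine Il6 rose from 1.36, 2.01 and 1.31 to 4.83, 3.98 and 5.39 FPKM (1.17 ± 0.14) and Il1rn, the antagonist of the interleukin-1 receptor, from 2.87, 2.85 and 2.66 to 7.24, 6.14 and 7.18 FPKM (1.05 ± 0.08). Inhibitors of signalling rose as well: Socs3 by 0.61 ± 0.06, Nfkbia, which holds NF-kB in the cytoplasm, by 0.56 ± 0.10, and Birc3 by 0.56 ± 0.05. Tnf went the other way, from 46, 53.7 and 48.7 to 34.2, 31.7 and 38 FPKM (-0.50 ± 0.09, adjusted p = 0.0081), with PBS above both at 117, 165 and 111 FPKM. The NF-kB subunits Nfkb1 (-0.11) and Rel (0.03) did not pass. With any 1 library left out, 9 to 11 members were called higher, and 1 to 2 lower, with 1 of the latter without any OMV-SIRP replicate or OMV-SIRP-G replicate 1.

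Ccl5 stood apart from other chemokines. Of 13 tested, 4 were higher and 1 lower (median 0.00). Cxcl2, a neutrophil attractant, rose by 0.56 ± 0.10, from 149 to 219.7 FPKM on average, while Ccl2 (-0.07), Ccl3 (0.18) and Ccl4 (0.00) did not pass. Without OMV-SIRP replicate 2, or without OMV-SIRP-G replicate 1, 2 chemokines remained higher. Receptors for attractants, listed together with those for colony-stimulating factors, counted 8 higher and 2 lower of 16 (median 0.22). Among the 8, Ccr7 passed the filter only through the OMV-SIRP-G libraries. Of the other 15 tested, 7 were higher and 2 lower (median 0.148). The formyl peptide receptors Fpr1 (0.76 ± 0.10) and Fpr2 (0.62 ± 0.07), which sense bacterial peptides, Cxcr4, the receptor that holds cells in the marrow (0.64 ± 0.08), and Ccr1 (0.46 ± 0.06) rose. Ccr2 (-0.18), on which monocytes leave the marrow, Cx3cr1 (-0.15) and Csf1r (-0.03) did not pass. Both lower calls, the colony-stimulating factor receptors Csf2ra (-0.24) and Csf3r (-0.29), were lost when any library but OMV-SIRP-G replicate 2 was left out (highest adjusted p = 0.14 and 0.11).

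Sensors of bacteria and fungi moved unevenly. Cd14, the co-receptor for lipopolysaccharide, was at 279, 305 and 289 FPKM in OMV-SIRP and 637, 642 and 669.5 FPKM in OMV-SIRP-G, a change of 1.16 ± 0.07 (adjusted p = 1.2e-04). Tlr4 (0.19) and its partner Ly96 (-0.05) did not pass, and Tlr9, a sensor of bacterial DNA, fell by 0.69 ± 0.12, from 12.4, 9.72 and 13 to 6.97, 7.61 and 5.95 FPKM. In that list of 22, 7 were higher and 1 lower (median 0.06). The count of higher members was 4 without OMV-SIRP replicate 1 or 2 and 3 without OMV-SIRP-G replicate 1. Among C-type lectins, 3 of 13 rose and 3 fell (median 0.01). Without Mrc1, which passed the filter only through the OMV-SIRP libraries, 3 of 12 rose and 2 fell (median 0.082). The rises were those of the fungal and mycobacterial sensors Clec4e (0.96 ± 0.06), Clec4n (1.19 ± 0.08) and Clec4d (0.55 ± 0.10).

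The lectins that fell were Mgl2, Clec10a and Mrc1, markers of alternatively activated macrophages and dendritic cells. Mgl2, a galactose-type lectin (chr11:70130329-70137550), was at 32.7, 31.5 and 32.3 FPKM in OMV-SIRP and 6.96, 6.88 and 7.07 FPKM in OMV-SIRP-G, a change of -2.06 ± 0.06 (adjusted p = 4.5e-06), with PBS between at 10.3, 13.4 and 10.4 FPKM. Clec10a, of the same lectin family, fell from 71.8, 86.1 and 75.2 to 26.8, 25.1 and 28.7 FPKM (-1.49 ± 0.09). Mrc1, the mannose receptor, dropped from 5.64, 5.30 and 4.63 to 0.570, 0.640 and 0.387 FPKM (-2.01 ± 0.11). Mrc1 passed the filter on low values only through the OMV-SIRP libraries, so the filter fixed its direction. It left the test when an OMV-SIRP library was left out. The list of alternative activation as a whole split, with 5 higher and 4 lower of 12 (median 0.21). Without Mrc1 the list counted 5 higher and 3 lower of 11 (median 0.36). Its rising members included Arg1, Arg2 (0.65 ± 0.10), Chil3, a chitinase-like protein (0.57 ± 0.07), and Il4ra, the receptor chain for interleukin-4 (0.39 ± 0.06). Its falling ones included the lectins and Irf4 (-0.83 ± 0.09). Arg2, with a mean of 12.7 FPKM over the 6 libraries, overlaps Vti1b, at 34.1 FPKM, on the other strand. Without a stated strand setting, reads of the shared stretch cannot be told apart.

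Dusp2, a phosphatase that turns off MAP kinases and the lowest member of the immediate-early list, fell from 18.2, 21.8 and 15.9 to 7.07, 7.17 and 7.05 FPKM (-1.27 ± 0.11). Tmem176b (-1.29 ± 0.08) and BC035044 (-1.12 ± 0.12) overlap the expressed genes Tmem176a and Clec2i on the other strand, and without a stated strand setting their reads cannot be told apart. Hist1h2bg, a histone (-1.16 ± 0.16), and Fgd2, an exchange factor for the GTPase CDC42 (-1.05 ± 0.08), belong to no list and complete the 15 with the largest falls.

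Genes that distinguish kinds of monocyte split. Of 13 classical monocyte genes 5 were higher and 1 lower (median 0.18): the matrix proteins Fn1, fibronectin (0.82 ± 0.13), and Vcan, versican (0.70 ± 0.09), rose, while Ly6c2 fell from 458, 539.6 and 537 to 334, 304 and 314 FPKM (-0.68 ± 0.09). The count of higher members was 3 when any library but OMV-SIRP-G replicate 2 was left out. Non-classical monocyte genes counted 5 higher and 2 lower of 13 (median 0.11), for example Ace (0.56 ± 0.11) and Itgal, an integrin chain (-0.44 ± 0.07), and 3 higher without OMV-SIRP replicate 2 or 3. Nr4a1, the factor on which non-classical monocytes depend, was at 0.05 (adjusted p = 0.57).

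Of 13 macrophage identity genes tested 6 were lower and 1 was higher (median -0.26). Of the lower members C1qc, Mrc1 and Cd163 passed the filter only through the OMV-SIRP libraries, where they were high, so their direction was fixed by it; of the other 10 tested, 3 were lower (median -0.087), beside 6.94% lower among all genes. The higher call was lost with any of the 6 libraries left out. C1qb, a chain of complement C1q, was at 10.8, 13 and 14.1 FPKM in OMV-SIRP and 3.34, 1.33 and 3.53 FPKM in OMV-SIRP-G (-1.92 ± 0.27, adjusted p = 0.0071), and C1qc fell from 3.76 to 0.637 FPKM on average (-1.53 ± 0.12). Axl, a receptor for dying cells, fell by 0.85 ± 0.11. The count of lower members was 3, 3 and 2 without OMV-SIRP replicates 1, 2 and 3, where 10 were tested. Adgre1 (0.01), the F4/80 antigen, did not pass.

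Among lipid-associated macrophage genes 7 of 18 were lower and 3 higher (median -0.09). Gpnmb, a glycoprotein of lysosomes and phagocytes (chr6:49036546-49070929), was at 74.5, 74 and 76.4 FPKM in OMV-SIRP and 22.1, 23.4 and 22.6 FPKM in OMV-SIRP-G, a change of -1.68 ± 0.05 (adjusted p = 8.9e-06). Trem2, a lipid-sensing receptor, fell from 34.5, 42.4 and 41.3 to 17.7, 13.7 and 16.3 FPKM (-1.26 ± 0.11), Apoe, the lipid carrier, from 339, 353 and 391 to 187, 155 and 198 FPKM (-1.002 ± 0.10), and the cathepsin Ctsk by 0.73 ± 0.08. Spp1, osteopontin (0.52 ± 0.06), and Cd9 (0.63 ± 0.07), often grouped with them, rose. Lysosomal genes counted 2 higher and 6 lower of 22 (median 0.09), with 1 lower without OMV-SIRP replicate 2 or 3 or OMV-SIRP-G replicate 1, 2 lower without OMV-SIRP-G replicate 3, and none higher without any library but OMV-SIRP-G replicate 2.

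MHC class II genes, which present antigen to CD4 T cells, had no member called higher and 5 of 10 lower (median -0.53). Of the lower members, 1 passed the filter only through the OMV-SIRP libraries, so the filter fixed its direction. Of the other 9 tested, 0 were higher and 4 lower (median -0.496). H2-Eb1 was at 17, 18.5 and 18.4 FPKM in OMV-SIRP and 7.40, 7.32 and 6.42 FPKM in OMV-SIRP-G (-1.24 ± 0.07, adjusted p = 1.4e-04), and H2-Aa at 11.5, 9.97 and 9.72 and 5.13, 3.71 and 4.87 FPKM (-1.04 ± 0.12). Cd74, the invariant chain, fell by 0.58 ± 0.10, while H2-Ab1 (-0.10) did not pass. The PBS libraries were low for H2-Aa, at 2.41, 3.13 and 1.89 FPKM, so that the OMV-SIRP group was the highest of the 3. Leaving out 1 library left 4 or 5 members lower, and the fit of 9 libraries kept 1. MHC class I and peptide loading genes counted 3 higher (17.6%) and 1 lower (5.88%) of 17 (median 0.09), beside 11.4% higher and 6.94% lower among all genes. The higher count was 1 without OMV-SIRP replicate 1 or 3 or OMV-SIRP-G replicate 1 or 3. H2-K1 (0.14), H2-D1 (0.18) and B2m (0.09) did not pass, and the largest rise was that of H2-Q7 (0.77 ± 0.10), a member of a family of similar genes whose reads may be split either way. Of ligands that stimulate or restrain T cells, 4 of 10 tested were higher and 1 lower (median 0.30): Cd86 rose by 0.73 ± 0.06, from 8.76, 9.48 and 8.54 to 15.5, 15.3 and 15.4 FPKM, Cd80 by 0.56 ± 0.09, and the inhibitory ligand Cd274 (PD-L1) by 0.79 ± 0.09. The lower call, Cd40 (-0.37), was lost without any library but OMV-SIRP-G replicate 3 (highest adjusted p = 0.14).

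Interferon genes did not move one way. Of 31 type I interferon-stimulated genes tested, 6 were higher and 8 lower (median 0.03). Slfn4 (0.70 ± 0.10), Rsad2 (0.68 ± 0.10) and Irf7 (0.41 ± 0.06) rose and Mx1 (-0.71 ± 0.09), Slfn5 (-0.53 ± 0.10) and Oas1a (-0.45 ± 0.08) fell. Irf7, with a mean of 13.1 FPKM over the 6 libraries, overlaps Phrf1, at 9.76 FPKM, on the other strand. Without a stated strand setting, reads of the shared stretch cannot be told apart. Without OMV-SIRP-G replicate 1 the counts were 3 higher and 3 lower, 5 were lower without OMV-SIRP replicate 2 or 3, and 3 were higher without OMV-SIRP replicate 1 or 3 or OMV-SIRP-G replicate 3. Of 14 interferon-gamma inducible genes, Cd274 rose and Cxcl10 (-0.46) was called lower. That is 7.14% in each direction, beside 11.4% higher and 6.94% lower among all genes. The Cxcl10 call was lost without OMV-SIRP replicate 1 or 2 or OMV-SIRP-G replicate 1 or 2 (highest adjusted p = 0.082). The receptors Ifnar1 (0.08) and Ifnar2 (0.06) did not pass.

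**Figure D4:**
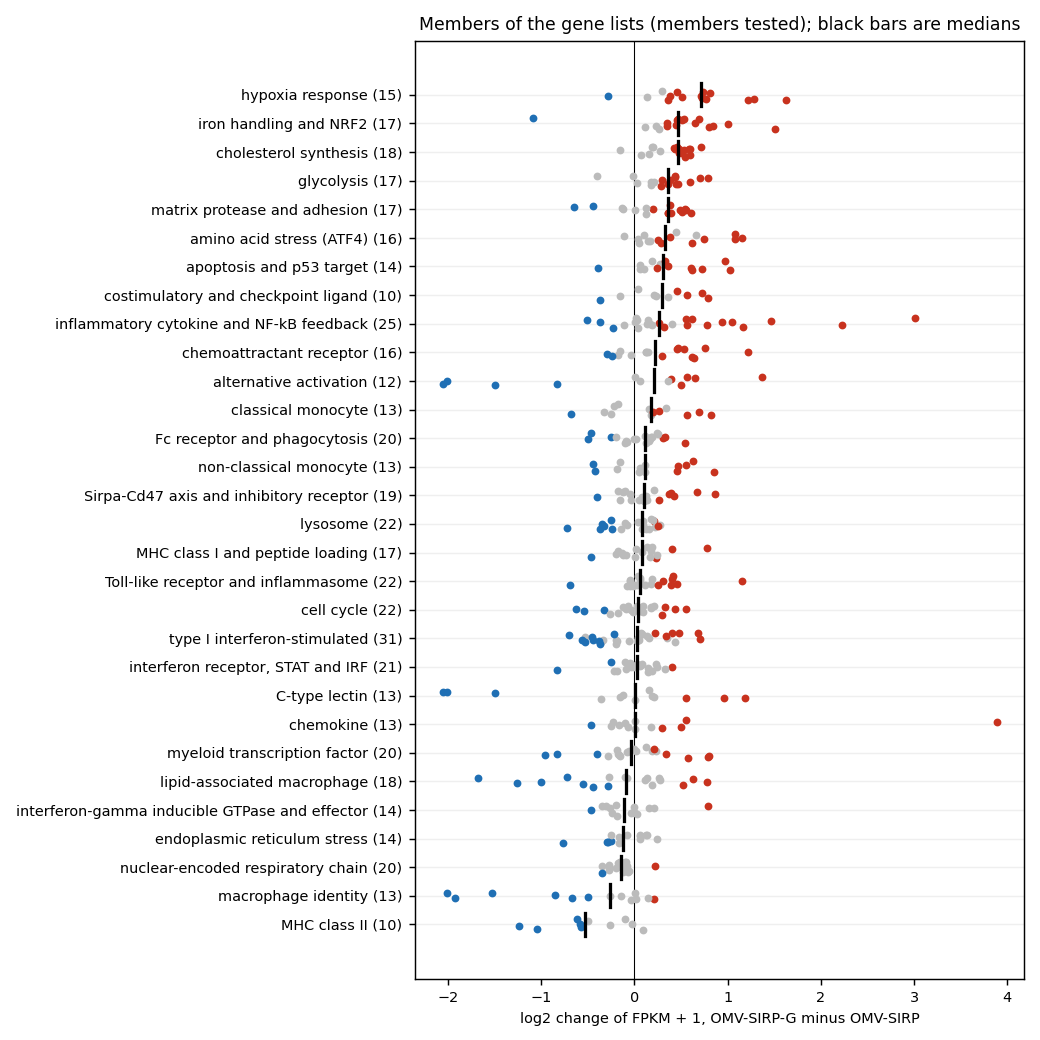
Log2 change of FPKM + 1 of every tested member of 30 pathway lists, ordered by their median (black bars), with the number tested in brackets; red members were higher, blue lower and grey did not pass. The hypoxia list leads with a median of 0.71 and MHC class II ends at -0.53, and most other medians lie within 0.3 of 0.

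Lists with medians near 0 also depended on the scaling. With each library scaled to its total of recovered reads, type I interferon-stimulated genes counted 3 higher and 8 lower (median -0.047), classical monocyte genes 3 and 4, non-classical monocyte genes 4 and 4, and the Toll-like receptor and inflammasome list 4 and 1 (median -0.029). Lysosomal genes then counted 0 higher and 6 lower, endoplasmic reticulum stress genes 0 and 7, heat-shock genes 2 and 3, cell cycle genes 2 and 4, and MHC class I genes 1 and 2. Nuclear-encoded respiratory chain genes, of which 1 was lower on the deposited scale, had 7 lower. The hypoxia (12 and 1), glycolysis (10 and 0), iron and NRF2 (12 and 1), cholesterol (11 and 0) and MHC class II (0 and 7) lists kept the sign of their medians.

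Sirpa, an inhibitory receptor of myeloid cells, was at 241, 226 and 235 FPKM in OMV-SIRP and 222, 224 and 199 FPKM in OMV-SIRP-G, groups that met without overlapping, and did not pass (-0.12 ± 0.07, adjusted p = 0.28). Its ligand Cd47, the "do not eat me" signal, rose by 0.43 ± 0.06, from 64, 68 and 62.7 to 88.2, 91 and 83.4 FPKM. In the list of inhibitory receptors around them 6 of 19 were higher and 1 lower (median 0.10), led by Fcgr2b, the inhibitory Fc receptor (0.87 ± 0.06), and Siglece (0.67 ± 0.09). Without OMV-SIRP-G replicate 1, 3 were higher. Activating Fc receptor and phagocytosis genes split into 3 higher and 3 lower of 20 (15% each, median 0.12), beside 11.4% higher and 6.94% lower among all genes. The counts were 1 of each without OMV-SIRP replicate 3, and 0 higher and 1 lower without OMV-SIRP-G replicate 1. Proteases and adhesion genes counted 10 higher and 2 lower of 17 (median 0.36), with rises of Mmp14 (0.61 ± 0.09), Mmp8 (0.56 ± 0.06) and the coagulation factor F10 (0.52 ± 0.07) and a fall of Timp2, an inhibitor of such proteases (-0.65 ± 0.08). The count of higher members was 6 without OMV-SIRP replicate 2 and 5 without OMV-SIRP-G replicate 1.

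Among myeloid transcription factors Bhlhe40 (0.80 ± 0.06) and Cebpb (0.57 ± 0.07) rose with Hif1a, and Myc (-0.96 ± 0.08), Irf4 and Cebpa (-0.40 ± 0.07) fell, with 5 higher and 3 lower of 20 (median -0.03) and 3 higher without OMV-SIRP replicate 1 or 3 or OMV-SIRP-G replicate 1. Spi1 (-0.15) and Irf8 (-0.06), on which the lineage depends, did not pass. Cell cycle genes counted 4 higher (18.2%) and 3 lower (13.6%) of 22 (median 0.04), beside 11.4% higher and 6.94% lower among all genes. The 3 lower were all replication helicase subunits led by Mcm6 (-0.62 ± 0.08). The higher count was 2 without OMV-SIRP replicate 1 or 3 or OMV-SIRP-G replicate 1 or 3. Mcm2 and Mcm3 lost their call without OMV-SIRP replicate 2 or 3 or OMV-SIRP-G replicate 1 (highest adjusted p = 0.065 and 0.095), and Mcm3 without OMV-SIRP-G replicate 2 or 3 too. Respiratory chain genes coded in the nucleus had 1 higher and 1 lower of 20 (5% each, median -0.15). The higher call was lost without any library but OMV-SIRP-G replicate 3. The lower call was lost without OMV-SIRP replicate 2 or 3 or OMV-SIRP-G replicate 1 or 2. Cytosolic ribosomal protein genes had 0 in either direction of 20 (median -0.14).

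Markers of other cells moved with the treatment. Of 12 GMP and progenitor markers tested, 9 were lower and none higher (median -0.62), and their summed FPKM was 569 to 631 in OMV-SIRP and 351 to 399.6 in OMV-SIRP-G, against 931 to 2003 in PBS. Elane, neutrophil elastase, was at 96.9, 109 and 117 FPKM in OMV-SIRP and 42.9, 43.4 and 41.7 FPKM in OMV-SIRP-G (-1.31 ± 0.08, adjusted p = 1.3e-04), Mpo, myeloperoxidase, fell by 0.95 ± 0.09, and Cd34, the stem and progenitor antigen, by 1.13 ± 0.08. Of the 12, 2 passed the filter only through the OMV-SIRP libraries, and 7 of the other 10 were lower. Without OMV-SIRP replicate 3 the count was 5 of 9 tested. The fit of 9 libraries called 2 of 13 lower, and in it Elane and Mpo did not pass (adjusted p = 0.067 and 0.064). In bulk samples fewer cells of a type and less RNA per cell cannot be told apart. Eosinophil markers rose in 5 of 6 tested (median 0.88), with a summed FPKM of 27.3 to 30.9 in OMV-SIRP and 47.2 to 60.6 in OMV-SIRP-G, for example Prg2, a granule protein (0.75 ± 0.12), and Alox15 (1.04 ± 0.09). Ear genes are near-identical copies whose reads may be split either way. Erythroid markers summed to 9.03 to 10.01 FPKM in OMV-SIRP and 18.4 to 22.2 FPKM in OMV-SIRP-G, against 140 to 429 FPKM in PBS. All 3 tested were higher, but Hba-a2 passed the filter only through the OMV-SIRP-G libraries, which fixed its direction. That leaves 2 others, both higher. Neutrophil markers counted 7 higher and 1 lower of 17 (median 0.34), with a sum of 2512 to 2848 FPKM and 2753 to 3687 FPKM, ranges that overlap. Among them Ltf (0.64 ± 0.05) and Ngp (0.61 ± 0.06) of the secondary granules rose, and S100a8 (0.11) and S100a9 (0.16) did not pass. Of B lineage markers 2 of 3 tested were lower (Cd79b -0.70 ± 0.08), 1 without OMV-SIRP replicate 2 or 3 or OMV-SIRP-G replicate 1 or 3. Mast cell and basophil markers had 2 of 3 tested higher (median 0.56), with a sum of 11.5 to 13.3 FPKM in OMV-SIRP and 18 to 19 FPKM in OMV-SIRP-G. Megakaryocyte and platelet markers had 2 of 3 tested lower (median -0.38), with sums of 10.1 to 11.4 and 7.06 to 9.18 FPKM. Treml1 passed the filter only through the OMV-SIRP libraries, and 1 of the other 2 tested was lower. The count of lower members was 0 without OMV-SIRP replicate 2 or 3. It was 1 without OMV-SIRP replicate 1 or OMV-SIRP-G replicate 1 or 3. Tpsb2 of mast cells, Gp1bb of platelets and Ncr1 of NK cells were listed at 0 in all 6 libraries. The part of these other cells in the results above was not tested.

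The same contrast in GMP, made from other libraries (3 against 3), gave mostly smaller changes for the monocyte genes above. In a fit of the 12 libraries, the difference of the change between monocytes and GMP passed for 3424 of 12836 genes tested (26.7%). Of these, 1963 were higher and 1461 lower in monocytes. The difference passed for 29 of the 30 named genes. These 30 were picked by their change in the same monocyte libraries, so the choice itself favoured a larger change there than in GMP. Ccl5 was 8.41 FPKM in OMV-SIRP and 13.6 FPKM in OMV-SIRP-G GMP on average, a change of 0.64 against 3.89 in monocytes, and the difference was 3.25 ± 0.13 (adjusted p = 7.9e-08). For Hmox1 the GMP change was -0.02 and the difference 1.52 ± 0.06. Gpnmb went the other way in GMP, from 31.3 to 78.8 FPKM (1.30), with a difference of -2.99 ± 0.06 (adjusted p = 6.1e-10), and so did Trem2 and Ctsk, with GMP changes of 0.64 and 1.29. The exception was Arg1, whose change was 1.07 in GMP and 1.37 in monocytes (difference 0.30 ± 0.14, adjusted p = 0.15). Il1b and Ptgs2 changed by 1.09 and 0.99 in GMP, with differences of 1.13 ± 0.16 and 0.47 ± 0.08. The Ptgs2 difference was lost with a pseudocount of 0.1 (0.20, adjusted p = 0.15) and with limma-voom (0.16, adjusted p = 0.44).

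**Figure D5:**
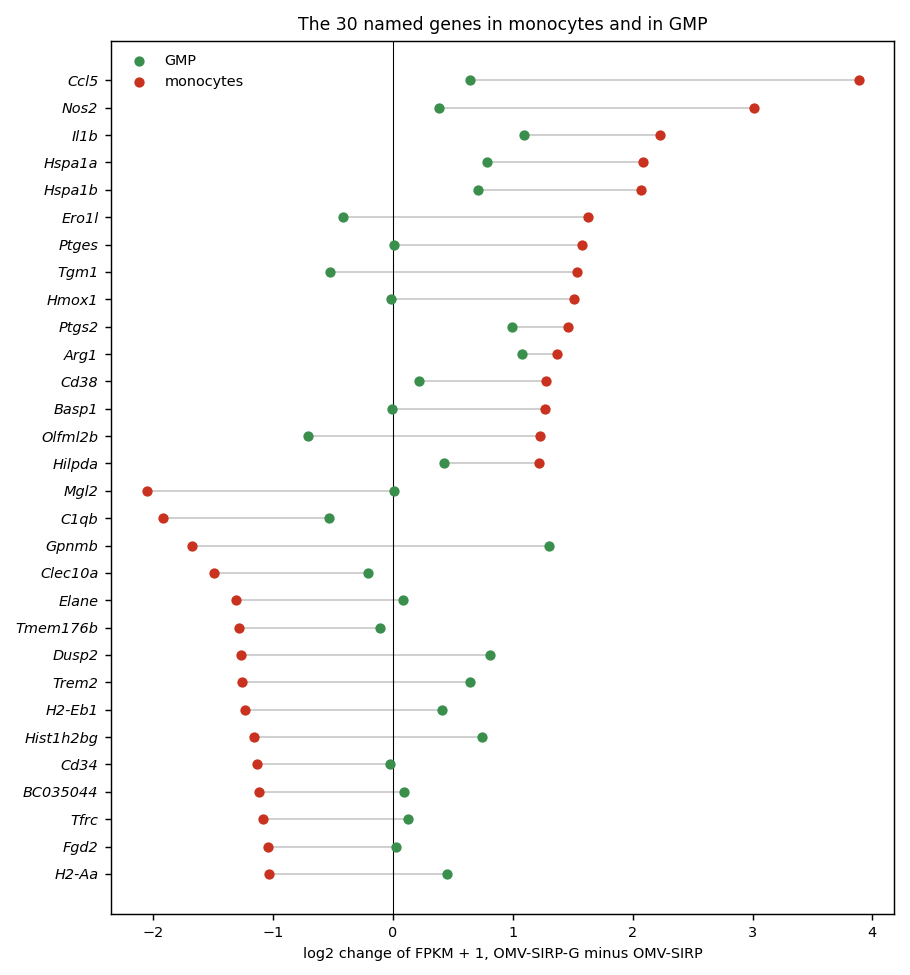
Log2 change of FPKM + 1, OMV-SIRP-G minus OMV-SIRP, of the 30 named genes in monocytes (red) and GMP (green), 1 row per gene with a grey line joining the pair. Of the green points 12 lie within 0.3 of 0, those of Il1b, Ptgs2 and Arg1 near 1, and that of Gpnmb at 1.30, on the other side of 0 from its red point at -1.68.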

How the data were processed

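Values were FPKM per gene, deposited by the authors in 1 table of the GMP and monocyte samples with 56026 gene models. Per the submitters' processing notes, HISAT2 2.0.5, StringTie and featureCounts 1.5.0-p3 were used with GRCm38; per the labels' protocols, RNA was extracted with TRIzol and libraries made with an NEBNext mRNA kit. No source used here gives the strand setting or the annotation. Low FPKM values were whole multiples of what 1 read is worth, and reads were recovered from them (100% of values whole within 0.05).

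The 6 libraries were fitted alone with limma 3.58.1 (R 4.3.3; trend and robust empirical Bayes) on log2(FPKM + 1), which understates changes of low genes, for genes with at least 1 FPKM in at least 3 libraries, with Benjamini-Hochberg adjustment over all genes tested. The difference from GMP was the interaction in a fit of 12 libraries. The script was tested on simulated data. Libraries of a group differed by more than sampling noise (chi-square per degree of freedom 5.08 to 16.3), so none was counted as a duplicate of another; this does not show that they come from separate animals. Named genes were the 15 largest and 15 smallest changes among called protein-coding genes with a mean of at least 5 FPKM and groups that do not overlap, plus members of 45 gene lists, and for the difference from GMP the 5 largest and 5 smallest. The comparison, the members and the lists were chosen with earlier results of these data known, so no list is independent evidence of its direction. Counts and medians describe a list, and no set test was run. Symbols held by more than 1 gene model were read from the model with the higher mean. Alternatives were another pseudocount, no filter, other scalings, limma-voom on recovered reads, a replicate block, a fit with PBS, and leaving out each library. Some members are not reported here.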

Additional observations from a re-analysis of the deposited data

Results flagged for a closer look

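The same contrast, OMV-SIRP-G minus OMV-SIRP, differed between monocytes and GMP for 31 of the genes singled out, by a test of the difference itself (limma, 12 libraries, adjusted p under 0.05). Over all genes, 3424 of 12836 tested (26.7%) passed. The 5 largest and 5 smallest differences were picked from genes that passed this same test, so their passing was fixed in advance. The other genes were picked by their change in the same monocyte libraries, which favoured a larger change there than in GMP. The differences below are log2 values, monocytes minus GMP, and no explanation was tested.

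Genes whose change was more positive in monocytes were Ccl5 (3.25), Nos2 (2.63), Tgm1 (2.06), Ero1l (2.05), Selenbp1 (2.04), Olfml2b (1.93), Ptges (1.57), Hmox1 (1.52), Hspa1b (1.36), Hspa1a (1.31), Basp1 (1.28), Il1b (1.13), Cd38 (1.06), Hilpda (0.79) and Ptgs2 (0.47). The Ptgs2 difference did not pass with a pseudocount of 0.1 (0.20, adjusted p = 0.15) or limma-voom (0.16, adjusted p = 0.44). Selenbp1, which binds selenium, was not among the 30 genes of the monocyte comparison: it changed by 1.12 in monocytes and -0.92 in GMP. Tgm1, Ero1l and Olfml2b also had negative changes in GMP, of -0.53, -0.42 and -0.71.

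Genes whose change was more negative in monocytes were Gpnmb (-2.99), Dusp2 (-2.08), Mgl2 (-2.07), Ctsk (-2.02), Trem2 (-1.90), Hist1h2bg (-1.90), H2-Eb1 (-1.65), H2-Aa (-1.49), Elane (-1.39), C1qb (-1.38), Clec10a (-1.28), Tfrc (-1.22), BC035044 (-1.20), Tmem176b (-1.17), Cd34 (-1.11) and Fgd2 (-1.08). Gpnmb (1.30), Ctsk (1.29), Dusp2 (0.81), Hist1h2bg (0.74), Trem2 (0.64), H2-Aa (0.45) and H2-Eb1 (0.41) had positive changes in GMP.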

How the results depend on the processing

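Of the 30 named monocyte changes, none changed sign under any alternative run, and 4 missed the threshold in 1 of them, the fit of 9 monocyte libraries. The count of 2118 genes was 1195 with no filter on low values, 117 with a minimum of 2-fold added, 293 in the fit of 9 libraries, and 1012 to 1753 with 1 library left out, lowest without OMV-SIRP-G replicate 1. It was between 1931 and 2791 under a pseudocount of 0.1, median-of-ratios scaling, scaling to total recovered reads, limma-voom on recovered reads, no trend and robust steps, and, chosen after seeing the data, the fit of 8 libraries without PBS replicate 2. The count of differences from GMP, 3424, was 2824 with no filter and 2819 to 3604 with 1 library left out. Deviations from the group means of libraries with the same replicate number correlated at -0.03, -0.04 and 0.03. Those of libraries with unlike numbers correlated at -0.10 to 0.12. With 3 libraries per group these values cannot show whether the numbers pair the samples. A replicate block gave 1221 genes, and 2583 for the difference from GMP. Low FPKM limited members such as Mrc1, C1qc and Ccr7, which left the test when 1 library was left out.

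Some genes that did not pass changed sign under an alternative, and the cause was not tested. Scaling to total recovered reads gave Adgre1 -0.078, B2m -0.0051, Bax -0.034, Ccl4 -0.086, Dnajb1 -0.070, Ifnar1 -0.0095, Ifnar2 -0.027, Nr4a1 -0.035, Pfkl -0.065 and Rel -0.048. Median-of-ratios scaling gave Adgre1 -0.010, Ccl4 -0.018 and Dnajb1 -0.0052, and limma-voom gave Ccl4 -0.00022. With 1 library left out the change ran from -0.0091 to 0.035 for Adgre1, -0.0058 to 0.14 for Bax, -0.16 to 0.043 for Ccl2, -0.096 to 0.15 for Ccl4, -0.078 to 0.024 for Csf1r, -0.026 to 0.039 for Dnajb1, -1.20 to 0.73 for Gapdh, -0.18 to 0.0058 for H2-Ab1, -0.043 to 0.025 for Hk3, -0.25 to 0.14 for Ly96, -0.0041 to 0.056 for Pfkl, -0.033 to 0.12 for Rel and -0.065 to 0.31 for S100a8.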
